A study of Mus musculus with 6 samples.

Results

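The Rab GTPases are small proteins of the Ras superfamily that mark the membranes of the secretory and endocytic pathways. Their genes were taken as every symbol made of Rab, a number and at most 1 further letter, from probe sets that the platform annotation ties to a single symbol. The array held 59 such genes on 132 probe sets, and 52 of them were kept as members among 13587 genes in all. Each gene was read from its probe set with the highest mean, and a gene was kept if at least 1 array reached that array's own median over all probe sets. The 7 genes left out were Rab17, Rab26, Rab30, Rab37, Rab3b, Rab44 and Rab9b. Rab37 came closest, with a log2 value of 3.15 on the wild-type 0 h array, whose median was 3.18. Rab33a was just inside, with 3.20 on the Akirin2 KO 2 h array, whose median was also 3.18. Of the 52 members, 36 stood at or above the median on all 6 arrays and 6 on a single array.

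The macrophages came from the peritoneal cavity of mice injected with thioglycollate, an irritant that draws macrophages there. Akirin2 KO mice carried LysM-Cre, a recombinase driven by the lysozyme gene of myeloid cells, together with floxed Akirin2, and were set against wild-type mice. The strain of both was given as C57BL/6 x 129Sv, and no age was given. Cells were unstimulated (0 h) or received lipopolysaccharide (LPS, a component of the bacterial outer membrane) at 100 ng/ml for 2 or 4 h, with 1 array for each of the 6 conditions. How many mice gave a sample, and whether the samples of 1 genotype share mice, is not in the labels.

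A Rab protein binds a membrane in its GTP-bound form and recruits effectors that tether, move or fuse vesicles. Exchange factors (GEFs) load it with GTP, GTPase-activating proteins (GAPs) switch it off, and escort and dissociation-inhibiting proteins carry its lipid-modified form between membranes. In macrophages, Rab proteins guide the maturation of phagosomes, the secretion of cytokines, and the passage of Toll-like receptor 4 (TLR4), the receptor for LPS, to and from the cell surface.

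Each value is the log2 expression of a probe set, and each difference is on that scale. The LPS effect was tested with limma in an additive fit of LPS time and genotype over all 13587 genes, with Benjamini-Hochberg adjustment over all of them and a threshold of 0.05. Since no condition has a replicate, its p-values measure how alike a difference was in the 2 genotypes, or over the 3 times for the genotype effect, and not the spread between animals. Levels of different probe sets cannot be set against each other. These are bulk samples, so fewer cells of a type and less RNA per cell cannot be told apart.

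Array medians lay between 3.18 and 3.23, and correlations between arrays over all probe sets between 0.958 and 0.989. Akirin2 had log2 values of 5.18, 5.54 and 4.91 in KO at 0, 2 and 4 h, against 7.43, 7.47 and 7.33 in wild-type, a difference of -2.20 (SE 0.14, limma adjusted p = 0.000328). All 16 macrophage markers measured were above the floor, and they summed on the linear scale to 19641 to 20806 in KO and to 20991 to 22741 in wild-type. Of these, Csf1r lay between 12.5 and 12.7 on the log2 scale and Cd68 between 10.6 and 10.9, while Itgam lay near the array medians, between 3.06 and 3.47. At 4 h of LPS, 3 macrophage markers were called higher and 6 lower. Markers of mesothelial cells and fibroblasts, 12 of 13 above the floor, summed on the linear scale to 508 to 626 in KO and to 825 to 946 in wild-type. Markers of resident peritoneal macrophages, 9 of 9 above the floor, summed to 1401 to 1511 in KO and to 1903 to 2542 in wild-type. The neutrophil markers Mpo, Elane, Ltf, Ngp and Cxcr2 were below the floor, and the 3 above it summed to 324, 397 and 538 in KO at 0, 2 and 4 h, against 304, 452 and 612 in wild-type. The lists of mast cells, B cells and T and NK cells summed to 33.6 to 69.5 on every array. The 3′ minus 5′ difference of the Actb control probe sets, a sign of RNA length, was 4.64, 4.50 and 4.36 in KO, against 4.22, 4.16 and 4.09 in wild-type. For the Gapdh control probe sets it was 4.34, 4.52 and 4.44 in KO, against 4.33, 4.33 and 4.42 in wild-type. The part of these shifts in the results below was not tested.

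Of the 52 Rab genes, 11 were called for LPS at 2 h, at 4 h or at both, and the differences ran both ways. The share of all genes called at either time was not counted, so each time is set against its own share. After 2 h, 4 members rose and 4 fell (15.4% of the members), where 6.85% of all genes were called, 3.96% higher and 2.89% lower. After 4 h, 4 rose and 6 fell (19.2%), against 15.4% of all genes, 7.76% higher and 7.61% lower, so at 4 h the members were called about as often as genes at large. Rab20, Rab32, Rab10 and Rab12 rose at both times. Rab29, Rab40c and Rab9 fell at both, Rab22a was called lower at 2 h, and Rab7b, Rab31 and Rab3d at 4 h. The median member difference was 0.0009 at 2 h and -0.063 at 4 h, against -0.042 and -0.026 over all genes. No member passed the test between 4 h and 2 h, where 2.67% of all genes did (1.56% higher, 1.11% lower). There 7 members (13.5%) had an unadjusted p under 0.05, against 13% of all genes.

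**Figure D1:**
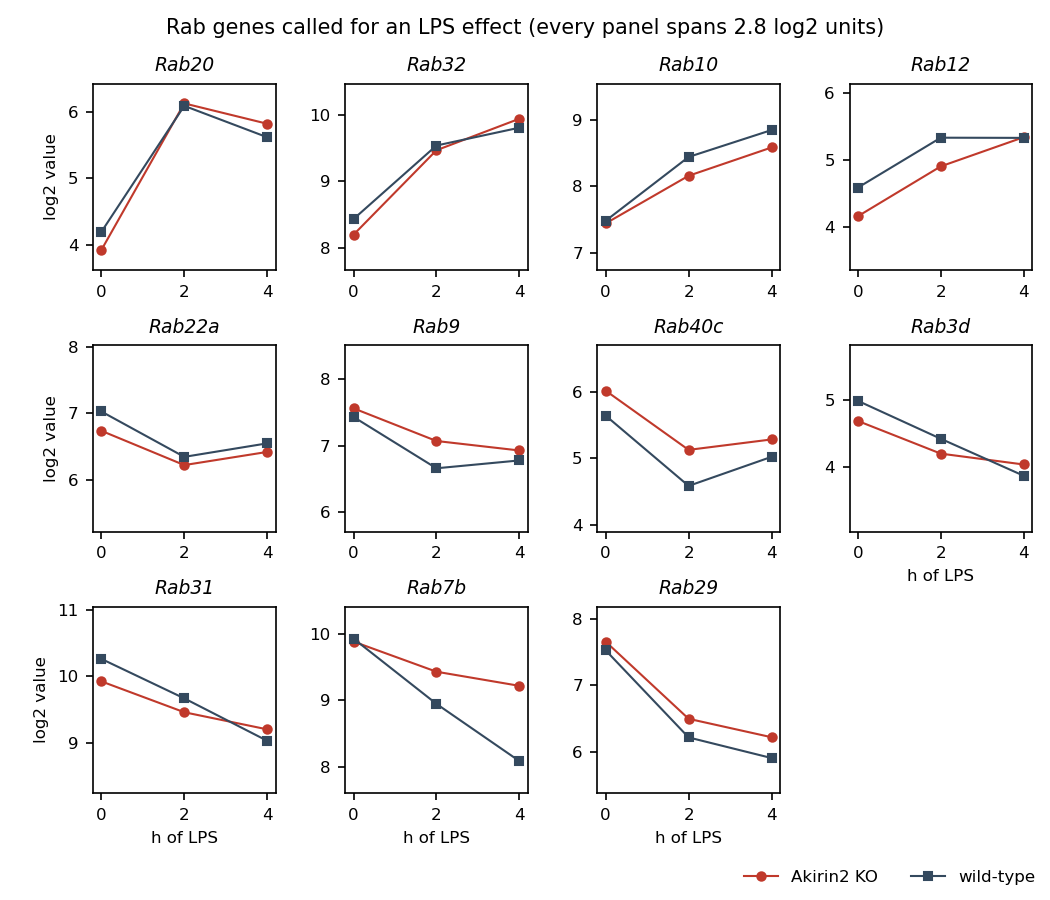
Log2 expression values of the members called for LPS, by hours of LPS, 1 panel a gene, with 1 point an array, for Akirin2 KO and wild-type. Rab20, Rab32, Rab10 and Rab12 stand higher at 2 and 4 h than at 0 h in both genotypes, and Rab29 stands lower, at 6.22 in KO and 5.91 in wild-type at 4 h.

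Rab20, Rab32 and Rab29 kept their calls at both times under every setting tried. Each has 1 probe set, so averaging or leaving out probe sets could not change its values. The 250 bases upstream of the transcription start of each are given here, from RefSeq's table for GRCm38.p6. Capitals mark each CG dinucleotide, the site that DNA methylation can occupy. The window of Rab20 lies on the minus strand at chr8:11478641-11478890, Rab32 on the minus strand at chr10:10558208-10558457 and Rab29 on the plus strand at chr1:131867027-131867276.
Rab20: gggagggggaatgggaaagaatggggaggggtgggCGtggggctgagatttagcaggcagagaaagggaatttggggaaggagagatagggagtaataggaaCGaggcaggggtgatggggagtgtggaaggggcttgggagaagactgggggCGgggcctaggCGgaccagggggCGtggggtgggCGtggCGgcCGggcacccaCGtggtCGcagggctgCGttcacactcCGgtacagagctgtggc
Rab32: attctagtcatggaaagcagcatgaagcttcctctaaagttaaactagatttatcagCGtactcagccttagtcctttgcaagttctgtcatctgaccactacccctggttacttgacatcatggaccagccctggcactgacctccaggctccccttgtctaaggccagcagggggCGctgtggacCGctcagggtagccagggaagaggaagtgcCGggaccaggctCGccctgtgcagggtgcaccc
Rab29: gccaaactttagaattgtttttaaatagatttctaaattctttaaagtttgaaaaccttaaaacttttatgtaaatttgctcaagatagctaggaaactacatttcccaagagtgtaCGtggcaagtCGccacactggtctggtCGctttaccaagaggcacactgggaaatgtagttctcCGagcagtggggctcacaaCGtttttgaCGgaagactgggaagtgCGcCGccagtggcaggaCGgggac
The windows held 12, 5 and 9 CG dinucleotides for Rab20, Rab32 and Rab29, with GC contents of 65.2%, 55.6% and 44.0%. Over all 32851 windows of the table the median was 6 CG dinucleotides and 52.4% GC, and over the 57 windows of the 45 members with an entry it was 15 and 60.4%. Rab10, also called at both times, held 34 CG dinucleotides and 74.8% GC in its window at chr12:3309970-3310219 on the minus strand.

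Both strands of these windows were searched for 6 motifs: NF-kB (by its name), AP-1 (TGACTCA), the cyclic AMP response element CRE (TGACGTCA), the interferon-stimulated response element ISRE (by its name), the lysosomal gene motif CLEAR (TCACGTGA) and TATAAA. No one of these letter strings contains another. Of all windows, 3.90% held NF-kB, 4.46% AP-1, 1.55% CRE, 2.98% ISRE, 0.785% CLEAR and 12.4% TATAAA. Of the 11 members called for LPS, 10 had a window, and 0 of these 10 held any of the 6 motifs. Among all members, NF-kB was found in Rab15 and Rab28, AP-1 in Rab15 and Rab34, CRE in Rab25 and Rab5a, ISRE in Rab19, CLEAR in Rab21 and Rab5a, and TATAAA in Rab39b, Rab42 and Rab7. A missing match says only that these letters were not in this window.

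The compartment groups given from here hold 5 to 10 members each, too few to set their counts against the shares of all genes given above. Among the 5 Rabs of phagosomes and lysosome-related organelles, 2 rose at both times and the other 3 passed no test. Rab20, which acts in the maturation of phagosomes and macropinosomes, had log2 values of 3.92, 6.12 and 5.82 in KO at 0, 2 and 4 h, against 4.19, 6.09 and 5.61 in wild-type. All 4 LPS arrays stood above both 0 h arrays. The fitted difference was 2.05 at 2 h (SE 0.17, limma adjusted p = 0.000226), or 4.13-fold, and 1.66 at 4 h (adjusted p = 0.000343), or 3.16-fold.

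Rab32, which serves lysosome-related organelles and the defence against intracellular bacteria, had values of 8.20, 9.47 and 9.94 in KO, against 8.44, 9.54 and 9.81 in wild-type. Its LPS and 0 h arrays did not overlap, and in each genotype the 4 h array was the highest. The difference was 1.19 at 2 h (SE 0.16, limma adjusted p = 0.00308) and 1.56 at 4 h (adjusted p = 0.000363). Rab38, the close relative of Rab32 in melanosome traffic, differed by 0.08 at 2 h and 0.12 at 4 h, and neither passed the test (adjusted p = 0.83 and 0.674). Rab39 and Rab39b also passed no test, with LPS differences at 4 h of -0.37 and 0.35.

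The 7 Rabs of late endosomes, lysosomes and autophagosomes held 1 riser and 2 that fell at 4 h. Rab12, which directs the transferrin receptor to lysosomes and takes part in autophagy, had values of 4.16, 4.91 and 5.34 in KO, against 4.59, 5.34 and 5.33 in wild-type. Every LPS array lay above both 0 h arrays, and the difference was 0.75 at 2 h (SE 0.17, limma adjusted p = 0.0356) and 0.97 at 4 h (adjusted p = 0.00578). Averaged with its other probe set, which lay near the array medians, Rab12 missed the threshold at both times (adjusted p = 0.0824 and 0.0898). At 2 h it also missed it without the KO 0 h array (adjusted p = 0.0668), the KO 2 h array (0.108) or the wild-type 2 h array (0.351).

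Rab7b, which promotes the lysosomal degradation of TLR4, had values of 9.88, 9.43 and 9.22 in KO, against 9.93, 8.95 and 8.09 in wild-type. The 0 h arrays were nearly level, and at each LPS time the wild-type array was the lower of the pair. Over both genotypes the difference was -0.72 at 2 h (SE 0.25, limma adjusted p = 0.145), which did not pass, and -1.25 at 4 h (adjusted p = 0.0107), which did. Without the wild-type 4 h array the 4 h difference was -0.80 (adjusted p = 0.0519), more than 1.5 times smaller. The call was also lost with a variance trend and robust variances in limma (adjusted p = 0.0853).

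Rab9, which returns mannose 6-phosphate receptors from late endosomes to the trans-Golgi network, had values of 7.56, 7.07 and 6.93 in KO, against 7.43, 6.66 and 6.78 in wild-type. All LPS arrays lay below both 0 h arrays, with differences of -0.63 at 2 h (SE 0.15, limma adjusted p = 0.0474) and -0.64 at 4 h (adjusted p = 0.0245). The 2 h call was lost without the KO 2 h, wild-type 0 h or wild-type 2 h array (adjusted p = 0.153, 0.12 and 0.54) and with the arrays centred on the median (0.092), and the 4 h call without the KO 4 h, wild-type 0 h or wild-type 4 h array (0.112, 0.0707 and 0.0664). Rab7, the main Rab of late endosomes and lysosomes, differed by 0.01 at 2 h and -0.06 at 4 h, and on the probe set read its 6 arrays spanned 0.10 log2 units.

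**Figure D2:**
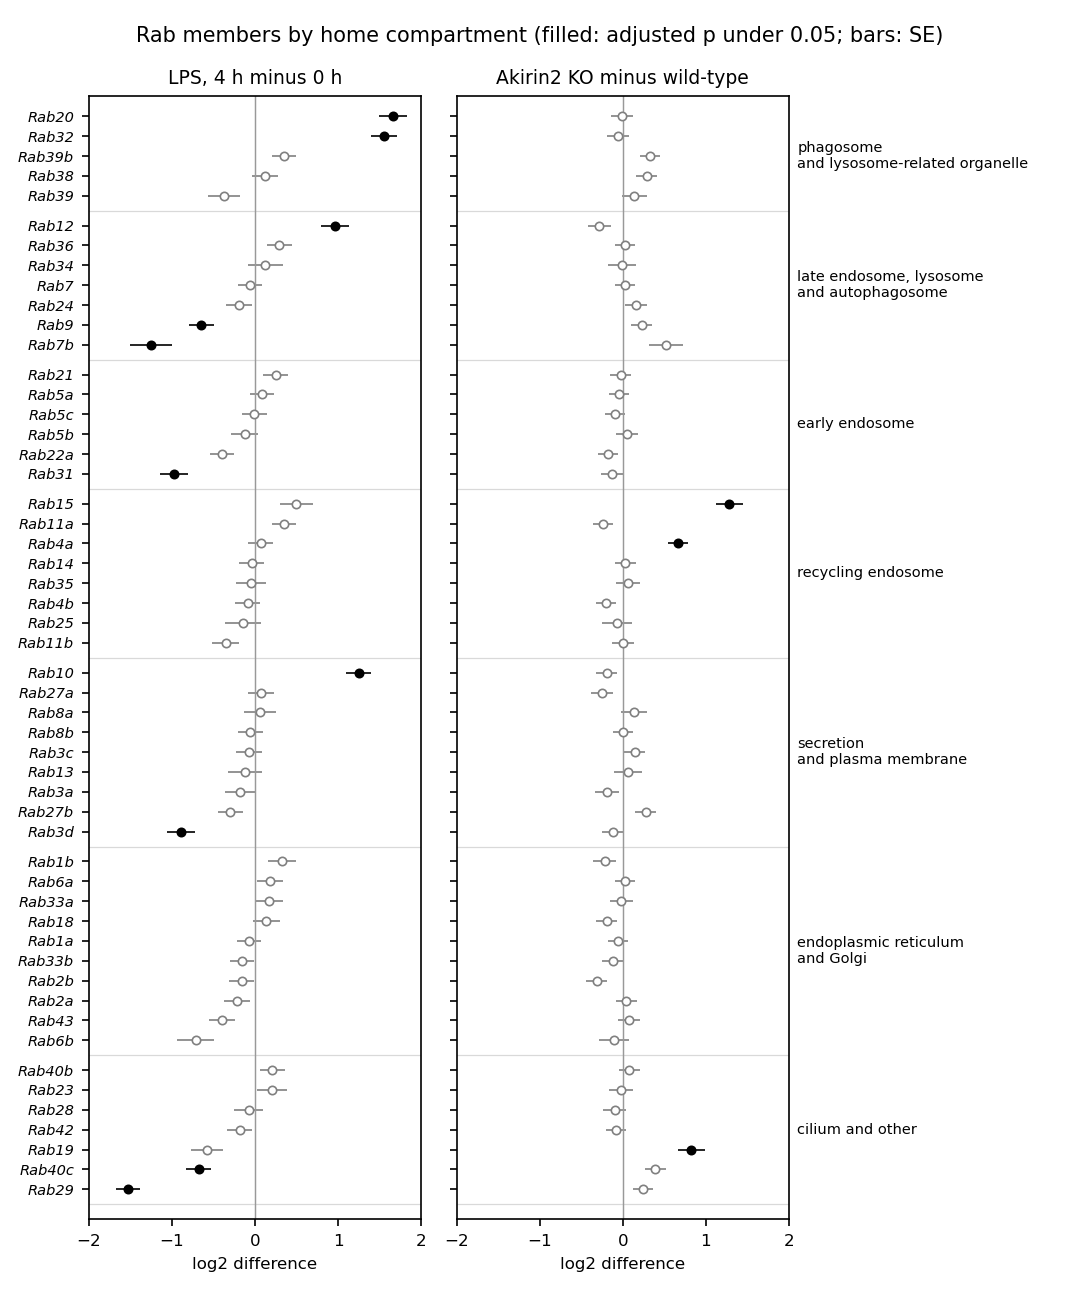
Fitted log2 differences of the 52 members, LPS 4 h minus 0 h on the left and Akirin2 KO minus wild-type on the right, grouped by the compartment the protein serves, with bars of 1 SE and filled points for an adjusted p under 0.05. On the left the filled points run from Rab20 at 1.66 to Rab29 at -1.53. The 10 members placed under the endoplasmic reticulum and Golgi lie between -0.71 and 0.33, and Rab29 and Rab19 are placed under cilium and other. On the right only Rab15, Rab4a and Rab19 are filled.

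Of the 6 early endosome Rabs, none rose and 2 were called lower, each at 1 time. Rab31, which works between the trans-Golgi network and endosomes, had values of 9.92, 9.46 and 9.20 in KO, against 10.26, 9.67 and 9.03 in wild-type. In each genotype the value was lower at each later time, and the 4 h difference was -0.98 (SE 0.17, limma adjusted p = 0.00588), while that at 2 h, -0.53, did not pass (adjusted p = 0.12). Averaged over its 2 probe sets the 4 h difference was -0.64 (adjusted p = 0.0798). The other probe set, above the array medians on all 6 arrays, fell in wild-type only. Its values were 5.55, 5.91 and 5.90 in KO, against 6.40, 5.98 and 5.45 in wild-type.

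Rab22a, which helps to sort and recycle cargo from early endosomes, had values of 6.74, 6.22 and 6.42 in KO, against 7.03, 6.35 and 6.55 in wild-type. Its difference at 2 h was -0.60 (SE 0.15, limma adjusted p = 0.0498), the call nearest the threshold among the members. It rested on a probe set of the kind that may match other transcripts: with such probe sets left out the difference was 0.22 (adjusted p = 0.484), and it was -0.10 (adjusted p = 0.693) as the mean of its 4 probe sets. The call was also lost without the KO 2 h, wild-type 0 h or wild-type 2 h array, at adjusted p of 0.291, 0.136 and 0.45, and with the arrays centred on the median, at 0.0804. Rab5a, Rab5c and Rab21, which act in the fusion and uptake steps of early endosomes, differed by 0.11, -0.04 and 0.11 at 2 h, with adjusted p of 0.74, 0.925 and 0.76.

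None of the 8 recycling endosome Rabs passed the test for LPS at either time. Of all genes, 6.85% did at 2 h and 15.4% at 4 h, and 8 members are too few to set the group apart. Rab11a, the main Rab of the recycling endosome, differed by 0.30 at 2 h and 0.35 at 4 h (limma adjusted p = 0.306 and 0.159), and Rab11b by -0.21 and -0.35 (adjusted p = 0.543 and 0.207). Rab14, which carries cargo between the Golgi and endosomes, spanned 0.14 log2 units over the 6 arrays on the probe set read.

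Of the 9 Rabs of secretion and the plasma membrane, 1 rose at both times and 1 fell at 4 h. Rab10, which takes part in exocytosis and in the return of TLR4 to the macrophage surface, had values of 7.44, 8.16 and 8.58 in KO, against 7.48, 8.44 and 8.84 in wild-type. Every LPS array lay above both 0 h arrays, and in each genotype the 4 h array was the highest. The difference was 0.84 at 2 h (SE 0.15, limma adjusted p = 0.0138) and 1.25 at 4 h (adjusted p = 0.000896), or 2.38-fold. Without the KO 2 h or the wild-type 2 h array the 2 h call was lost (adjusted p = 0.0772 and 0.187), and the 4 h call held under every setting. Its other 2 probe sets were also higher on every LPS array than on the 0 h array of the same genotype.

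Rab3d, a Rab of regulated secretory granules, had values of 4.69, 4.20 and 4.04 in KO, against 4.99, 4.42 and 3.87 in wild-type. All LPS arrays lay below both 0 h arrays, and the 4 h difference was -0.89 (SE 0.17, limma adjusted p = 0.00851), while that at 2 h, -0.53, missed the threshold (adjusted p = 0.114). The 4 h difference was -0.67 (adjusted p = 0.0705) without the wild-type 4 h array and -0.38 (adjusted p = 0.0918) as the mean of its 4 probe sets, of which 2 reached the array median on only 2 arrays. Rab27a, needed for the release of lysosome-related granules, and Rab8a and Rab8b, which act in polarised exocytosis, stayed between -0.06 and 0.27 at both times and passed no test.

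None of the 10 Rabs placed under the endoplasmic reticulum and Golgi passed any test. Of all genes, 6.85% were called at 2 h of LPS, 15.4% at 4 h and 1.95% between genotypes, and 10 members are too few to set the group apart. Other members that act at the Golgi were placed in other groups, among them Rab29, called for LPS, and Rab19, called for genotype. Rab1a and Rab2a, which act between the endoplasmic reticulum and the Golgi, had LPS differences of -0.07 and -0.21 at 4 h. Rab6b, a Golgi Rab, was the nearest to a call, at -0.71 (SE 0.22, limma adjusted p = 0.0663), and reached the array median on 4 of the 6 arrays.

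The remaining 7 members, of cilia and other roles, held 2 that fell at both times. Rab29, which recruits the kinase LRRK2 to Golgi and lysosomal membranes, had values of 7.65, 6.50 and 6.22 in KO, against 7.52, 6.22 and 5.91 in wild-type. All 4 LPS arrays stood below both 0 h arrays by more than 1 log2 unit, with fitted differences of -1.23 at 2 h (SE 0.15, limma adjusted p = 0.00189) and -1.53 at 4 h (adjusted p = 0.000286). Rab40c, which has a SOCS box and links to a ubiquitin ligase, had values of 6.02, 5.13 and 5.28 in KO, against 5.64, 4.59 and 5.02 in wild-type. In each genotype the 2 h array was the lowest, and the differences were -0.97 at 2 h (SE 0.15, limma adjusted p = 0.00693) and -0.68 at 4 h (adjusted p = 0.0189). Without the wild-type 2 h array the 2 h call was lost (adjusted p = 0.108), and so was the 4 h call without the KO 4 h array (0.108). Averaging with a second probe set, below the array medians on all 6 arrays, lost both calls (adjusted p = 0.0944 and 0.188).

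By size alone, 11 of the 52 members were at least 2-fold apart in at least 1 of the 9 comparisons of single arrays, where 13.5% of all genes were. In KO, Rab20 and Rab32 were 2-fold higher after 2 h of LPS and Rab29 and Rab19 2-fold lower (3.35% of all genes moved so far). In wild-type, Rab20 and Rab32 were 2-fold higher and Rab29 and Rab40c 2-fold lower (4.45%). At 4 h the KO arrays had Rab20, Rab32, Rab10 and Rab12 higher and Rab29 lower (6.54%), and the wild-type arrays had Rab20, Rab32 and Rab10 higher and Rab29, Rab7b, Rab31 and Rab3d lower (8.47%). Between 4 h and 2 h, 0 members were 2-fold apart in KO (1.52% of all genes) and 0 in wild-type (2.42%).

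The LPS differences of KO and of wild-type share no array. Across the 52 members they correlated with a Pearson r of 0.855 and a Spearman rho of 0.673 at 2 h, and of 0.817 and 0.612 at 4 h. Over all genes r was 0.707 and 0.755 at these times, and rho 0.454 and 0.519. These are descriptions across genes, which are not independent replicates, and within a genotype both times share the 0 h array.

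**Figure D3:**
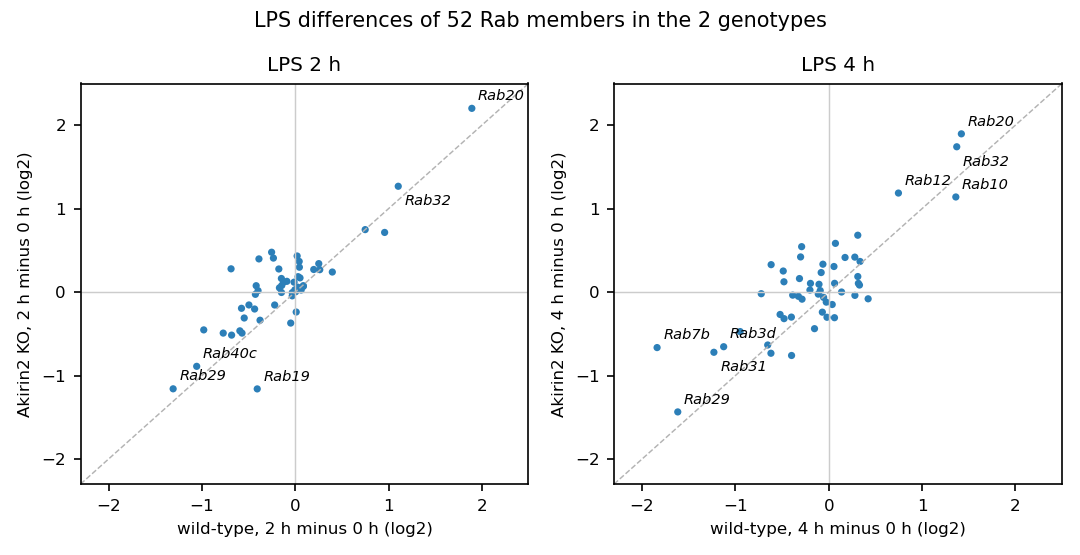
Log2 LPS difference in Akirin2 KO against that in wild-type at 2 h and at 4 h, 1 point a member, with the line of equal responses. Rab20, Rab32 and Rab29 lie far from 0 and near the line in both panels, and Rab7b lies off it at 4 h, at -0.66 in KO and -1.84 in wild-type.

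Loss of Akirin2 was accompanied by higher values of 3 Rab genes over the 3 times and by lower values of 0. The 3 are 5.77% of the members, where 1.95% of all genes were called, 0.891% higher and 1.06% lower. The median member difference was -0.004, against -0.011 over all genes, and 7 members (13.5%) had an unadjusted p under 0.05, against 15.4% of all genes. By size, Rab19 was 2-fold higher in KO at 0 h (1.93% of all genes were 2-fold apart), Rab15 at 2 h (0.949%), and Rab15 and Rab7b at 4 h (1.45%). Rab15 held under every setting, while Rab19 and Rab4a each lost their call under several.

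Rab15, a regulator of early and recycling endosomes, had log2 values of 4.50, 4.90 and 5.18 in KO at 0, 2 and 4 h, against 3.61, 3.22 and 3.92 in wild-type. All 3 KO arrays stood above all 3 wild-type arrays. The wild-type 2 h value lay close to that array's median of 3.18. The KO minus wild-type difference was 0.90, 1.68 and 1.27 at the 3 times and 1.28 in the fit (SE 0.16, limma adjusted p = 0.00783), or 2.43-fold. Its call was kept in 17 of 17 settings, where its difference ranged from 1.08 to 1.48. These settings hold repeats, since leaving out either array of a time is the same fit as leaving out both. Rab15 has 1 probe set, so averaging or leaving out probe sets could not change its values.

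Rab4a, which sends cargo from early endosomes back to the surface by the fast route, had values of 4.32, 4.31 and 4.32 in KO, against 3.66, 3.51 and 3.80 in wild-type. The groups did not overlap, and the difference was 0.66 (SE 0.12, limma adjusted p = 0.0374). It missed the threshold without the 2 h arrays (adjusted p = 0.228), as the mean of its 2 probe sets (0.0894) and with the arrays centred (0.0797) or quantile-normalized again (0.0525). Its probe set is also of the kind that may match other transcripts, and its other probe set was below the array medians on all 6 arrays. Its relative Rab4b differed by -0.20 (adjusted p = 0.492).

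Rab19, a Rab of the Golgi and of cilium formation, had values of 4.61, 3.45 and 3.85 in KO, against 3.41, 3.004 and 3.01 in wild-type. The KO 0 h array was the highest, and each KO array was above the wild-type array of the same time. On the 2 h and 4 h wild-type arrays the probe set was below the array median. The difference was 0.83 (SE 0.16, limma adjusted p = 0.0409), and the call was lost without the 4 h arrays (adjusted p = 0.051), with no floor (0.0525) and with the arrays centred (0.1). Its LPS difference at 2 h, -0.78, was the member value closest to a call (adjusted p = 0.0504).

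Marker genes of cell types also differed between genotypes. Of the 16 macrophage markers, 0 were called higher in KO and 3 lower, Fcgr1 by -0.89, C1qa by -1.08 and C1qc by -0.71 (limma adjusted p = 0.0115, 0.00995 and 0.0309), and the list's median was -0.25. The marker lists of mesothelial cells and fibroblasts and of resident peritoneal macrophages had median genotype differences of -0.38 and -0.30. Col1a2 of the former list was called lower in KO (-0.83, limma adjusted p = 0.0372). Cxcl13 of the latter was also called lower (-1.27, limma adjusted p = 0.00783). The lists of mast cells, B cells and neutrophils had medians of 0.11, 0.001 and -0.11. The T cell gene Cd28 was called higher in KO (1.19, limma adjusted p = 0.0203), while Cd3e, Cd4, Cd8a and Ncr1 had differences of -0.02, -0.15, -0.27 and -0.02 and passed no test, the list's median was -0.02, and Cd3d and Cd3g were below the floor. The part of other cells, or of the Actb 3′ minus 5′ shift given above, in these differences was not tested.

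**Figure D4:**
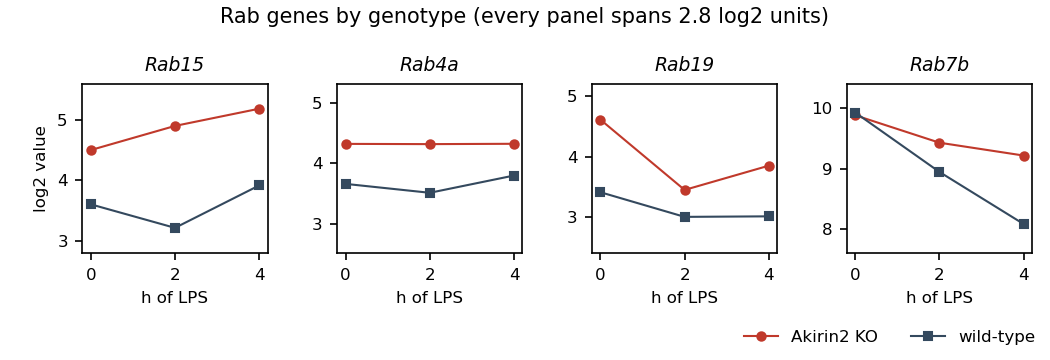
Log2 expression values of Rab15, Rab4a, Rab19 and Rab7b, by hours of LPS, with 1 point an array, for Akirin2 KO and wild-type. For Rab15, Rab4a and Rab19 the KO point lies above the wild-type point at each time, while the Rab7b points are level at 0 h and apart by 1.13 at 4 h. For Rab15 and Rab4a every KO point (from 4.50 and 4.31) lies above every wild-type point (up to 3.92 and 3.80).

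Whether the LPS difference itself differed between genotypes was tested as an interaction of genotype with stimulation. Its 1 residual degree of freedom measures how alike the genotype difference was at 2 and 4 h, not the spread between animals. The 11.5 prior degrees of freedom are drawn from all genes. Of the 52 members, 0 passed, against 4 of 13587 genes (0.0294%, with 0.00736% higher and 0.0221% lower). An unadjusted p under 0.05 was found for 5 members (9.62%), beside 12.8% of all genes. Rab7b had an interaction of 0.85 (SE 0.29, limma adjusted p = 0.248), the LPS difference of KO being less negative than that of wild-type. In single arrays, its KO minus wild-type difference was -0.04, 0.48 and 1.13 at 0, 2 and 4 h. Its other 2 probe sets had interactions of 0.65 and 0.57. With a variance trend and robust variances in limma, Rab7b was the only member to pass the interaction test (adjusted p = 1.49e-05). Under that setting 1.92% of members and 1.88% of all genes passed, and the 4 h LPS call of Rab7b was lost. Its genotype difference over the 3 times was 0.52 (adjusted p = 0.27), and 0.81 (adjusted p = 0.0171) with the 0 h arrays left out. The median interaction was 0.17 for the members and 0.10 over all genes. With arrays centred on the median of the genes above the floor these were -0.05 and -0.11, so the sign of a small interaction depends on the scaling.

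Among 114 measured genes of the Rab machinery, LPS raised 3 and lowered 6 at 2 h (7.89%), and raised 10 and lowered 15 at 4 h (21.9%), beside the 6.85% and 15.4% of all genes given above. Genotype raised 1 and lowered 0 (0.877%, beside 1.95% of all genes), and 0 passed the interaction. Their median LPS difference was -0.10 at 2 h and -0.12 at 4 h.

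Of 51 effectors listed, 39 were measured, of which 1 rose and 4 fell at 2 h, and 5 rose and 4 fell at 4 h. Rab11fip1, a Rab11 effector of recycling endosomes, had log2 values of 3.58, 5.70 and 5.69 in KO, against 3.81, 6.15 and 6.10 in wild-type. Its differences were 2.23 at 2 h (SE 0.15, limma adjusted p = 7.51e-05) and 2.20 at 4 h (adjusted p = 4.74e-05), with no overlap between LPS and 0 h arrays. Rab11fip5, another Rab11 effector, moved the other way, with values of 9.68, 8.44 and 8.36 in KO, against 9.58, 8.09 and 7.75 in wild-type. It fell by 1.36 at 2 h (adjusted p = 0.00216) and by 1.57 at 4 h (adjusted p = 0.000496). Rab11a and Rab11b themselves passed no test.

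Plekhm1, a Rab7 effector that joins lysosomes to incoming vesicles, had values of 7.64, 6.80 and 6.57 in KO, against 7.54, 5.83 and 6.27 in wild-type, and fell by 1.27 at 2 h (limma adjusted p = 0.00988) and by 1.17 at 4 h (adjusted p = 0.00748). Mical1, which binds Rabs of exocytosis and oxidises actin, was the machinery gene called for genotype. Its values were 7.56, 6.37 and 6.12 in KO, against 6.81, 5.66 and 4.42 in wild-type, so that the KO array was the higher at each time. The genotype difference was 1.05 (SE 0.20, adjusted p = 0.0373), and the LPS difference was -1.17 at 2 h (adjusted p = 0.0243) and -1.91 at 4 h (adjusted p = 0.00109). Lrrk2, the effector of Rab29, named here after its values were seen, rose by 0.59 at 4 h (adjusted p = 0.0294).

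**Figure D5:**
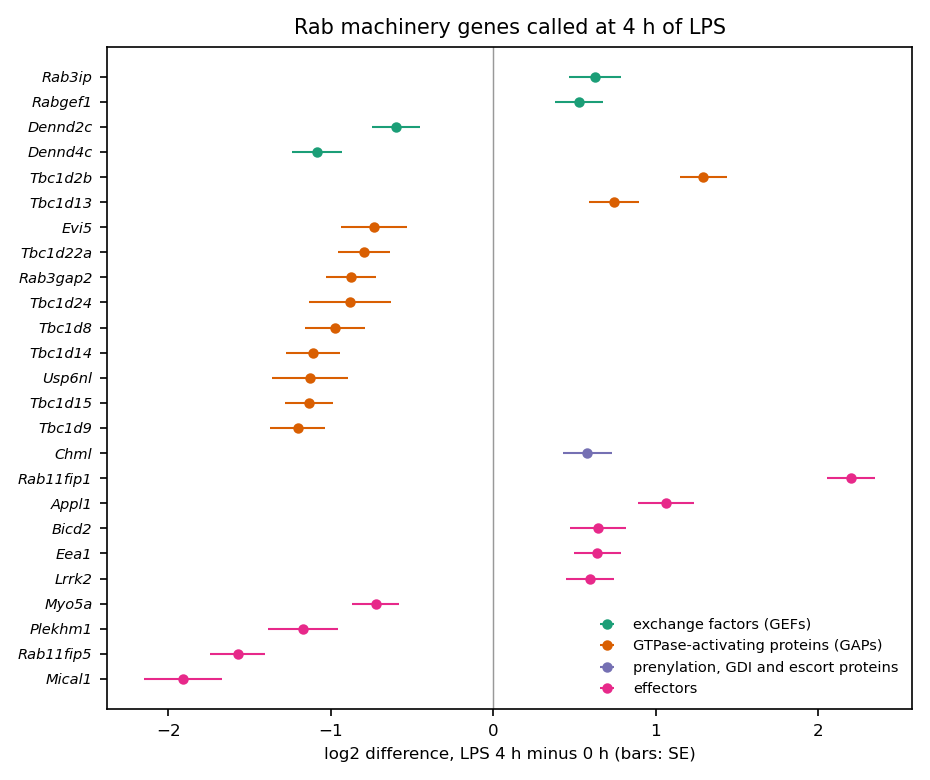
Fitted log2 differences, LPS 4 h minus 0 h, with bars of 1 SE, of the genes of the Rab machinery called at 4 h, coloured by list. Rab11fip1 stands highest, at 2.20, and Mical1 lowest, at -1.91, and 9 of the 11 GTPase-activating proteins lie below 0.

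Of 37 GTPase-activating proteins listed, 36 were measured, of which 1 rose and 1 fell at 2 h, and 2 rose and 9 fell at 4 h. Tbc1d2b rose by 1.47 at 2 h (limma adjusted p = 0.000659) and by 1.29 at 4 h (adjusted p = 0.000616). Tbc1d14, which regulates autophagosome formation, fell by 1.21 at 2 h (adjusted p = 0.00332). Tbc1d15, a GAP for Rab7, had values of 8.32, 7.95 and 7.28 in KO, against 8.34, 7.86 and 7.12 in wild-type, and fell by 1.13 at 4 h (adjusted p = 0.00128). Tbc1d9 fell by 1.21 and Usp6nl, a GAP for Rab5, by 1.13 at 4 h (adjusted p = 0.00184 and 0.0135). Between 4 h and 2 h, Tbc1d13 rose by 0.78, Tbc1d15 fell by 0.71 and Rab3gap2 fell by 0.80. They were the only machinery genes called there, 2.63% of the 114 measured, beside 2.67% of all genes.

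Of 37 exchange factors listed, 33 were measured, of which 1 rose and 1 fell at 2 h, and 2 rose and 2 fell at 4 h. Rabgef1, an exchange factor for Rab5, had values of 8.81, 9.58 and 9.32 in KO, against 8.68, 9.57 and 9.23 in wild-type, and rose by 0.83 at 2 h (limma adjusted p = 0.0121) and by 0.53 at 4 h (adjusted p = 0.0436). Dennd4c, an exchange factor for Rab10, had values of 8.50, 7.99 and 7.55 in KO, against 8.51, 7.72 and 7.29 in wild-type. It fell by 0.65 at 2 h (adjusted p = 0.0428) and by 1.09 at 4 h (adjusted p = 0.00204), while Rab10 itself rose. Rab3ip, an exchange factor for Rab8, rose by 0.62 at 4 h (adjusted p = 0.032), and Dennd2c fell by 0.60 (adjusted p = 0.0269). Of 7 prenylation, dissociation-inhibiting and escort genes listed, 6 were measured and Chml, a Rab escort protein, rose by 0.58 at 4 h (adjusted p = 0.0353).

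The 38 members that passed no test spanned 0.10 to 1.06 log2 units over the 6 arrays, with a median of 0.44. The median span was 0.54 over all 52 members and 0.57 over all genes, so the group as a whole varied about as much as genes at large. Rab7, Rab14 and Rab1a were among the flattest on the probe set read, with spans of 0.10, 0.14 and 0.15. Other probe sets of these genes varied more: 1 of Rab7 ran from 6.04 to 6.45, 1 of Rab14 from 6.79 to 7.35 and 1 of Rab1a from 7.69 to 8.21.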

How the data were processed

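The authors deposited a log2 expression value for each probe set, and the submitters' processing notes name RMA. Its version and the genome build are not stated in the labels or headers. Per the labels' protocols, total RNA was extracted with Trizol and biotin-labelled cRNA was made with the NuGEN Ovation system. Arrays have no read depth, so precision is limited by their number. Of 45101 probe sets, 34958 had 1 symbol, 932 several and 9211 none in the platform annotation, and those with 1 symbol gave 18194 genes. The floor kept 13587 genes.

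Fits used limma 3.58.1 in R 4.3.3 (lmFit, eBayes) with Benjamini-Hochberg adjustment. The additive fit (LPS time and genotype) had 2 residual degrees of freedom and 6.35 prior ones. The interaction fit (genotype with stimulation) had 1 residual and 11.5 prior ones. Single arrays were compared by size, at 2-fold. Scripts were tested on simulated data. Named genes are the members called in any fit or 2-fold apart in any pair of arrays compared, at most 3 others a role, and up to 4 called machinery genes a list and contrast. The members and lists were chosen with earlier results of these data known. Alternatives were other floors, probe set rules, normalizations, limma settings and thresholds, and leaving out arrays. Promoter windows are from RefSeq, with 7 members lacking an entry.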

Additional observations from a re-analysis of the deposited data

Results flagged for a closer look

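For 9 members both LPS arrays of KO stood above the KO 0 h array while both LPS arrays of wild-type stood below the wild-type 0 h array. The interaction differences were 0.74 for Rab13, 0.17 for Rab14, 0.35 for Rab18, 0.72 for Rab25, 0.46 for Rab28, 0.48 for Rab34, 0.47 for Rab35, 0.22 for Rab4b and 0.47 for Rab8a. None passed the interaction test in limma, with adjusted p between 0.241 and 0.834. Rab25 was kept only through the wild-type 0 h array, so its fall in wild-type follows in part from the floor. Rab13 reached the array median on 4 arrays and Rab34 on 5. The 9 are 17.3% of the members, where 10.3% of all genes had this pattern, and 0 members had the opposite one, against 6.12% of all genes. With arrays centred on the median of the genes above the floor, 4 members had the first pattern and 4 the opposite one, against 3.83% and 14.5% of all genes. The cause was not tested.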

How the results depend on the processing

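No paired analysis was possible because each condition has 1 array and the labels carry no replicate numbers. Of the values of called members under the alternatives, 260 kept direction and call, 41 kept direction and lost the call, and 1 reversed: Rab22a at 2 h was 0.22 without probe sets that may cross-hybridise. These counts hold repeats. For genotype, leaving out either array of a time is the same fit as leaving out both. For LPS at 1 time, leaving out either array of the other LPS time gives the same fit. Rab20, Rab29 and Rab32 at both times, Rab10 at 4 h and Rab15 between genotypes held under every setting. Rab20, Rab29, Rab32 and Rab15 have 1 probe set each, so averaging or leaving out probe sets could not change their values. With single arrays left out, the members called numbered 4 to 10 at 2 h (4 without the KO or the wild-type 2 h array), 7 to 12 at 4 h, 0 to 1 between 4 h and 2 h (Rab7b without the KO 4 h array) and 2 to 4 between genotypes. The interaction cannot be fitted with an array left out, since no residual degree of freedom remains. Averaging the probe sets of a gene left 6 calls at 4 h (13% of members, 14.4% of all genes). With variance trend and robust variances, 4 members were called between 4 h and 2 h (7.69%, against 6.44% of all genes), 1 in the interaction (1.92%, against 1.88%) and 3 between genotypes (5.77%, against 6.5%). Quantile normalization again and centring each left 1 genotype call (1.92% of members, against 1.62% and 1.05% of all genes). At 1.5-fold, 18 members (34.6%) differed between single arrays, against 41% of all genes. Over all genes, variance trend and robust variances called 1669 genes at 2 h, 875 between 4 h and 2 h, 883 between genotypes and 256 in the interaction, against 931, 363, 265 and 4. For genotype, centring called 142 genes, and leaving out the 0 h arrays 664 or the 2 h arrays 158. The causes were not tested.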

Other observations

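Some members are neighbours in the RefSeq annotation of GRCm38.p6. Rab29 and Rab7b have 3 protein-coding genes between them, and both were called lower after 4 h of LPS, with differences of -1.53 and -1.25. Of the genes between, Pm20d1 had a difference of 0.41 and Slc41a1 of -0.34, and neither passed the limma test (adjusted p = 0.129 and 0.244). Both lay near the array medians and were kept only through wild-type arrays, Pm20d1 at 4 h and Slc41a1 at 0 and 2 h. Their differences therefore follow in part from the floor, and Slc26a9, also between, was not among the genes kept. These genes cannot serve as a contrast to the fall of Rab29 and Rab7b. Rab12 and Rab31, with 8 protein-coding genes between them, were called in opposite directions at 4 h, at 0.97 and -0.98. Rab43 and Rab7, with 6 between them, passed no test.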
